A study of Saccharomyces cerevisiae with 18 samples.

Results

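The galactose (GAL) regulon of budding yeast was followed across 3 RNA-seq comparisons of snoRNA mutants grown in glucose. Its 7 members, GAL1, GAL7, GAL10, GAL2, GAL3, GAL80 and GAL4, were taken by name. All 7 had an entry in each table, out of 11614 transcripts in the U3 table, 9418 genes in the snr4Δ glucose table and 9437 genes in the snr4Δ ice table.

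The study asked which RNAs yeast snoRNAs contact and whether a change in a snoRNA alters RNA abundance. In 18 libraries, forming 6 groups of 3, the labels and methods give poly(A)-selected RNA, while elsewhere the study describes rRNA depletion for the U3 libraries. The labels name BY4741, a MATa laboratory strain without functional HIS3, LEU2, MET15 and URA3, as the strain of every group. The U3mut cells lacked the SNR17B copy of the U3 gene, had SNR17A behind the GAL1 promoter, which glucose shuts off, and carried a truncated U3 under the SNR17A promoter on the centromeric plasmid pRS413. For complementation the study describes U3wt cells with the same chromosomal changes and wild type U3 on that plasmid. Its RNA-seq methods name BY4741 as a control, so the build of the sequenced U3wt cells is not certain. Before the glucose culture, U3mut clones were kept overnight in galactose, the inducer of the regulon, so that SNR17A was first on and then depleted. The methods describe this shift for the U3mut clones, and what U3wt went through is not stated separately. The snr4Δ cells had SNR4 replaced by a drug marker and were compared with BY4741 in SD glucose medium at 30 °C. With libraries of their own, both were also compared after a short transfer to ice-cold PBS. The sample titles and the study's methods name ice for this transfer. A figure legend of the study instead names medium with ethanol and glycerol as the carbon source, so the condition is not certain. Truncated U3 does not sustain growth, and U3mut cells were sampled after a glucose culture meant to deplete the chromosomally expressed U3. The methods give 3 transformants each for U3mut and snr4Δ and do not say how the 3 libraries of each control group differ. All p-values therefore rest on the spread between these libraries, which may in part be technical. The variances in the tests also borrow from other transcripts or genes. For U3 they include the uncertainty in dividing reads among transcripts.

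The regulon is a classic genetic switch. Galactose enters through the permease Gal2 and is turned into a glucose phosphate by the galactokinase Gal1, the uridylyltransferase Gal7 and the epimerase Gal10. The activator Gal4 sits on sites upstream of these genes and is held back by Gal80, until galactose-bound Gal3, a paralog of Gal1 without kinase activity, relieves it. In glucose the repressor Mig1 with its corepressors Tup1 and Cyc8 keeps the genes off, including GAL4 itself.

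The members share a sequence feature in the bases upstream of their start codons. The Gal4 site was searched as CGGNNNNNNNNNNNCCG in the 600 bases before each start codon of the R64 RefSeq genome. The motif reads the same on the other strand, so 1 search covers both strands. It occurred in 210 of 5999 promoters (3.50%), and 7 promoters (0.117%) held more than 1 copy. All 7 members held it in this fixed window, which takes no account of neighbouring genes. The GAL4 match lies 470 to 454 bases before the start codon. That is past the near edge of YPL247C, 268 bases from GAL4, and so outside the intergenic region. GAL1 and GAL10 are transcribed away from each other and share the 668 bases between them, so the 3 matches counted for each are the same 3 sites. GAL2 held 5 matches, of which the last pair overlap, and GAL7, GAL3, GAL80 and GAL4 held 1 each. They are shown because they mark what the members share apart from their names, with the fixed ends of each match in capitals, read 5′ to 3′ in the direction of the gene. The shared region is read in the direction of GAL1. It lies at chrII:278558-278631 on the plus strand. The GAL7 match is at chrII:275703-275719 on the minus strand. Both GAL2 matches shown, of its 5, are on the plus strand, at chrXII:289796-289812 and chrXII:289815-289831. The GAL3 match is at chrIV:463146-463162 on the plus strand. The GAL80 match is at chrXIII:171422-171438 on the plus strand, and the GAL4 match is at chrXVI:82810-82826 on the minus strand.
GAL1-GAL10: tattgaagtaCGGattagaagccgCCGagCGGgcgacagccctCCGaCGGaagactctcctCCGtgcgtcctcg
GAL7: CGGacaactgttgaCCG
GAL2: CGGcggtctttcgtCCG
GAL2: CGGagatatctgcgCCG
GAL3: CGGtccactgtgtgCCG
GAL80: CGGcgcactctcgcCCG
GAL4: CGGtggcgcaggatCCG

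The core of the Mig1 site was searched on both strands as CCGGGG or CTGGGG, or with a leading G as GCGGGG or GTGGGG. It occurred in 27.8% of the promoters, so a single match says little. GAL4 held 3 matches, GAL3 held 2, GAL80 held 1, and GAL1 and GAL10 held the same 2 in their shared region. The GAL4 matches that begin 527 and 334 bases before its start codon lie past the near edge of YPL247C, 268 bases away. Its match at 89 bases is intergenic. The GAL80 match, at 406 bases, lies past the near edge of SUR7, 283 bases away. GAL7 and GAL2 held none in this window. A match is a stretch of letters and does not show that a protein bound there.

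**Figure D1:**
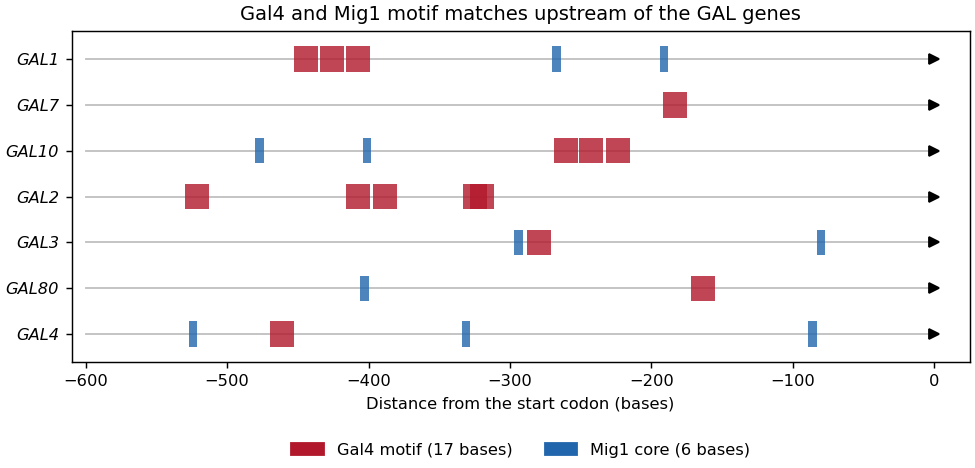
Position of the Gal4 motif (red) and the Mig1 core (blue) upstream of each member, in bases before the start codon, which is the arrowhead at 0. GAL1 and GAL10 show the same 3 Gal4 matches from opposite ends of their shared region, and GAL2 has the most matches, 5.

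Mating-type markers and strain markers were examined first. The MATa markers MFA1, MFA2, STE2, BAR1, STE6 and AGA2 averaged between 184 and 3182 estimated counts in the U3 libraries. The MATalpha pheromone genes MF(ALPHA)1 and MF(ALPHA)2 had no estimate there, and both stayed under 6 normalised counts in the snr4Δ experiments. The MATalpha genes STE3 and SAG1 averaged 30.6 and 187 estimated counts in the U3 libraries, and the meiotic genes IME1, IME2, SPO11 and SPO13 between 4.64 and 192. LEU2 and URA3 averaged 423 and 785 estimated counts in the U3 libraries, although BY4741 lacks both genes. In the snr4Δ experiments neither passed 4 normalised counts. HIS3, which is not functional in BY4741, was detected in every comparison. It averaged 10522 estimated counts in the U3 libraries. Its mean over snr4Δ and BY4741 cells was 1162 normalised counts for the glucose libraries and 938 for the ice libraries. Where the HIS3 reads came from was not tested. The U3 libraries thus differ from the named strain at LEU2 and URA3, and the part of this in the results was not tested. The U3 gene SNR17A, which its GAL1 promoter should have silenced in U3mut, and in U3wt if built alike, had a log2 fold change of 1.24 (SE 0.86, sleuth q = 0.277). The plasmid copies share its sequence, so this entry does not measure repression. SNR17B, described as deleted, averaged 134 estimated counts in the U3 libraries (log2 fold change 0.68, SE 0.73, sleuth q = 0.515). Where those reads came from was not tested. snR4 itself was lower in snr4Δ cells than in BY4741, with shrunken log2 fold changes of -2.91 (glucose, DESeq2 adjusted p = 9.66e-77) and -2.49 (ice, DESeq2 adjusted p = 7.29e-76).

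In U3mut cells the regulon did not move as a block. GAL10 was higher than in U3wt cells, GAL3 and GAL80 were lower, and GAL1, GAL7, GAL2 and GAL4 did not pass the test. That is 3 of 7 members called, 1 higher and 2 lower, where 34.7% of all 9380 transcripts tested were called, 17.2% higher and 17.5% lower. The share of members called is near that background. The members' median log2 fold change was -0.50, beside -0.07 over all transcripts. The table holds no value per library, so levels are geometric group means of estimated counts, rebuilt from the deposited mean and coefficient. Ranges in parentheses span 1 SD either side, from the spread within the groups (n = 3 each). The table also does not name its baseline group. Positive values are read as higher in U3mut, since its title puts the mutant first and the study plots lower levels in the mutant as negative, and every direction in the U3 comparison rests on that reading.

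Among the Leloir pathway enzymes, GAL10, whose product also turns UDP-galactose back into UDP-glucose, reached 101.8 estimated counts (86.8 to 119.5) in U3mut and 44.9 (38.2 to 52.7) in U3wt. The ranges are well apart, and the log2 fold change was 1.17 (SE 0.34, 95% interval 0.51 to 1.83, sleuth q = 0.00241). GAL1, the galactokinase, was at 32.0 estimated counts (21.5 to 47.4) in U3mut and 6.76 (4.42 to 10.2) in U3wt. Its log2 fold change of 2.16 was larger than that of GAL10, but the error was larger too (SE 1.27, 95% interval -0.33 to 4.65, sleuth q = 0.185). The error of GAL1 came mainly from its inferential variance. This is the uncertainty of the estimated count, from counting noise and from dividing reads among transcripts. It was 0.925 on the natural log scale, out of a variance of 1.16 used in the test. The whole observed variance between libraries within groups was lower, at 0.151. That inferential variance was 14.2 times what a count of its size would have, where the median transcript had 1.31 times, and 5.07% of transcripts were at or above GAL1. GAL3, its paralog, had an inferential variance of 0.0241, or 1.75 times what its count would give. Whether reads shared with GAL3 enter the error of GAL1 was not tested. GAL7, the uridylyltransferase, had 23.0 estimated counts (18.8 to 28.1) in U3mut and 32.8 (26.8 to 40.0) in U3wt, with a log2 fold change of -0.50 (SE 0.51, 95% interval -1.49 to 0.49, sleuth q = 0.480). Thus GAL7 and GAL10, neighbours on chromosome II, had estimates of opposite sign, and a test between them was not made.

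GAL2, the permease, was at 17.04 estimated counts (11.5 to 25.1) in U3mut and 24.7 (16.7 to 36.4) in U3wt. The ranges overlap, and the log2 fold change was -0.52 (95% interval -1.81 to 0.76, sleuth q = 0.582).

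Both genes that set the inhibition of Gal4 were lower in U3mut. GAL3, the galactose sensor, had 42.7 estimated counts (31.6 to 57.6) in U3mut and 121.4 (90.2 to 163) in U3wt, a fold of 0.355 (95% interval 0.221 to 0.569, sleuth q = 0.000125). GAL80, the inhibitor, had 358.5 (333 to 386) in U3mut and 603.8 (562 to 649) in U3wt, a fold of 0.594 with a log2 fold change of -0.75 (95% interval -1.11 to -0.39, sleuth q = 0.000317). With each transcript's own variance in place of the one shrunken across transcripts, GAL3 no longer passed (adjusted p = 0.0514, sleuth coefficient) and GAL1 did (0.0421). GAL10 and GAL80 stayed past the threshold in that setting (0.0257 and 0.0143).

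GAL4, the activator, was at 15.3 estimated counts (10.5 to 22.2) in U3mut and 6.15 (4.14 to 9.02) in U3wt. The ranges do not overlap at 1 SD, but the log2 fold change of 1.25 had an interval from -0.39 to 2.89 and did not pass the test (sleuth q = 0.254). At so few counts the interval takes in a fall as well as a large rise.

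**Figure D2:**
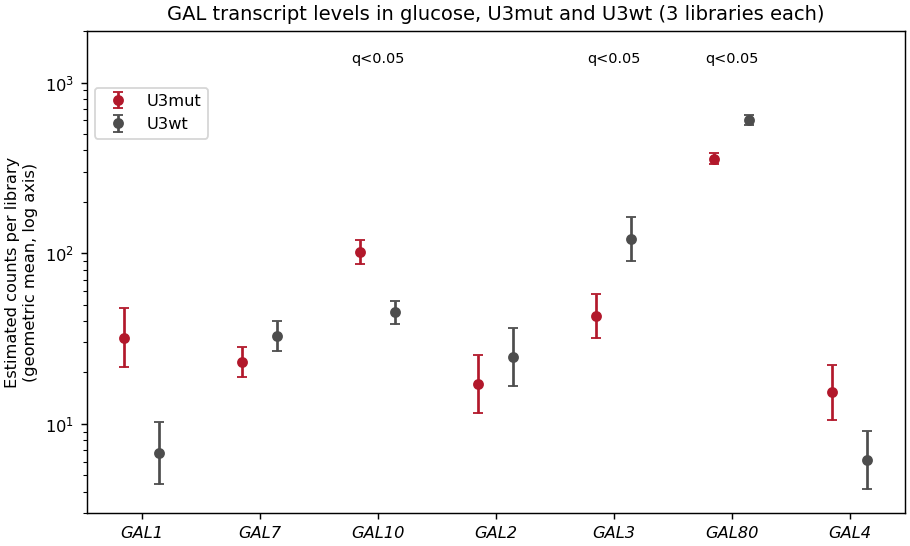
Estimated counts of the 7 members in U3mut (red) and U3wt (grey) cells on a log axis. Points are geometric means of 3 libraries and bars span 1 SD within groups, and the 3 members marked above the points, GAL10, GAL3 and GAL80, passed the sleuth threshold of 0.05.

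Levels between genes were compared per kilobase of coding length. In U3mut the order was GAL80 at 274 estimated counts per kilobase, GAL10 at 48.5, GAL3 at 27.3, GAL7 at 20.8, GAL1 at 20.2, GAL2 at 9.88 and GAL4 at 5.79. Only GAL80 and GAL10 stood clear of the next gene by more than 1 SD of each, and from GAL3 down every neighbouring pair overlapped. In U3wt the order was GAL80 at 462 estimated counts per kilobase, GAL3 at 77.6, GAL7 at 29.8, GAL10 at 21.4, GAL2 at 14.3, GAL1 at 4.26 and GAL4 at 2.32. There GAL80, GAL3 and GAL2 stood clear of the next gene, and the pairs GAL7 and GAL10, GAL10 and GAL2, and GAL1 and GAL4 overlapped. GAL10 thus stood above GAL3 in U3mut and below it in U3wt, apart in both by more than 1 SD of each.

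The whole regulon apart from GAL80 lay at the bottom of the transcriptome. Among 5744 protein-coding transcripts of the U3 experiment, ranked by mean level, GAL4 was at percentile 0.244, GAL1 at 1.32, GAL2 at 1.76, GAL7 at 3.81, GAL10 at 4.70 and GAL3 at 6.20. GAL80 was at percentile 43.3. The members with called changes were therefore the 3 with the highest mean levels. A known noncoding RNA runs antisense across GAL10. The library kit was directional and reads were reverse-complemented, but the strand setting of the quantification is not given, and the share of antisense reads in the GAL10 value was not tested.

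In snr4Δ cells growing in glucose, no member differed from BY4741 past the threshold. Of the 6 members with an adjusted p, 0 were called by DESeq2, where 18.1% of 6131 genes were, and 0 had an unadjusted p under 0.05. GAL1, at a mean of 6.29 normalised counts over the 6 libraries, fell under the authors' filter on low counts and had an unadjusted p only (0.707, DESeq2). The fold changes of both snr4Δ tables are shrunken towards no change, most of all for genes with few reads.

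GAL80 gave the tightest estimate. It had a back-calculated 1192 normalised counts in snr4Δ cells and 1095 in BY4741, a fold of 1.08 (95% interval 0.983 to 1.20, DESeq2 adjusted p = 0.285). GAL3 had 166 normalised counts in snr4Δ cells and 152 in BY4741, a fold of 1.07 (0.894 to 1.29, DESeq2 adjusted p = 0.668). GAL4 had 159 normalised counts in snr4Δ cells and 152 in BY4741, a fold of 1.04 (0.871 to 1.24, DESeq2 adjusted p = 0.833). These regulators had estimates above 1 with intervals that include 1. GAL7 had 80.1 normalised counts in snr4Δ cells and 85.4 in BY4741, a fold of 0.958 (0.783 to 1.17, DESeq2 adjusted p = 0.831). GAL2, with a mean of 48.9 normalised counts, had the largest estimate, a fold of 1.20 (0.966 to 1.49, DESeq2 adjusted p = 0.273). GAL10, with a mean of 26.1, had a fold of 1.03 (0.832 to 1.27, DESeq2 adjusted p = 0.9004). The intervals of all 7 members lay between a fold of 0.783 and 1.49. They belong to shrunken estimates and do not bound the change before shrinkage. With the shrinkage undone, the log2 fold change went from 0.04 to 0.29 for GAL1 and from 0.26 to 0.51 for GAL2.

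On ice, likewise, 0 of the 5 members with an adjusted p were called by DESeq2, where 6.48% of 6140 genes were. Among members with an adjusted p, GAL4 had the largest estimate, a shrunken fold of 1.19 (1.003 to 1.42, unadjusted p = 0.0458 and adjusted p = 0.253, DESeq2). Its levels were 108 normalised counts in snr4Δ cells and 81.8 in BY4741, back-calculated with the shrinkage undone (log2 fold change 0.40). GAL4 was the 1 member with an unadjusted p under 0.05. GAL80 had 1064 normalised counts in snr4Δ cells and 985 in BY4741, a fold of 1.07 (0.961 to 1.20, DESeq2 adjusted p = 0.544). GAL3 had 82.5 normalised counts in snr4Δ cells and 83.1 in BY4741, a fold of 0.995 (0.833 to 1.19, DESeq2 adjusted p = 0.987). Neither inhibitor nor sensor therefore showed a difference beyond its error. GAL7, at a mean of 36.7 normalised counts, had a fold of 0.904 (0.756 to 1.08, DESeq2 adjusted p = 0.595), and GAL10, at 26.8, had 1.02 (0.858 to 1.20, DESeq2 adjusted p = 0.957). GAL1 and GAL2, at 6.18 and 15.4 normalised counts, had no adjusted p. For GAL1 the unadjusted p was 0.0805 (DESeq2). Its shrunken log2 fold change was 0.14, and 1.35 with the shrinkage undone, so its size is poorly set at this read number.

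**Figure D3:**
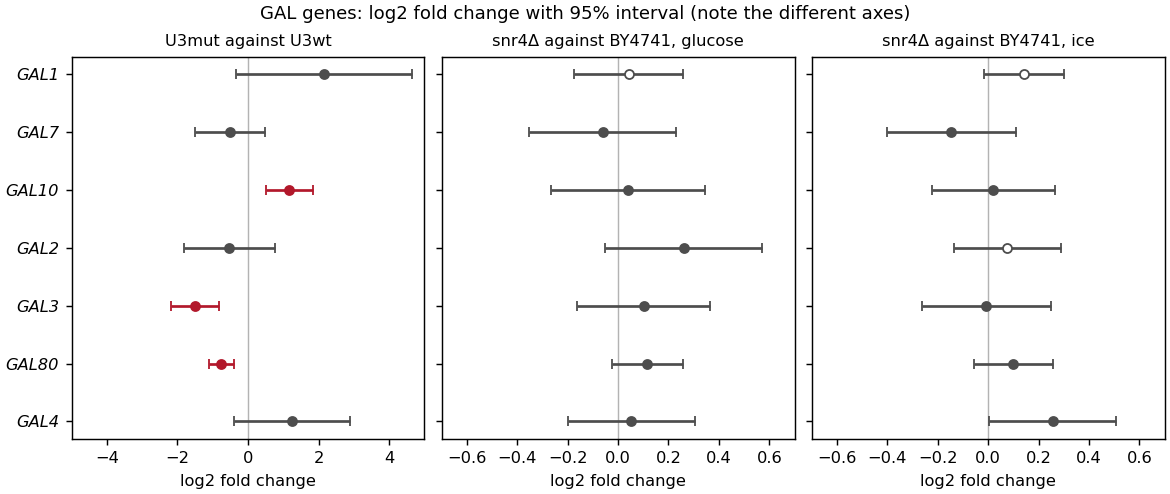
Log2 fold changes of the 7 members with 95% intervals in the 3 comparisons, U3mut against U3wt on a wider axis than both snr4Δ panels. Red marks a call, and open circles mark members without an adjusted p. GAL10 lies above 0 and GAL3 and GAL80 below it in the first panel, and no member is called in the others.

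The effect of snr4Δ on the members was then compared between ice and glucose, each difference being divided by its combined standard error. Of the 7 members 0 differed, where 1.09% of 9308 genes did, and 0 of them had an unadjusted p under 0.05. The differences ran from -0.19 for GAL2 (95% interval -0.56 to 0.19) to 0.20 for GAL4 (-0.15 to 0.56). Mean levels over both genotypes could be set side by side only as a description, since each table was normalised on its own. GAL2 averaged 15.4 normalised counts on ice and 48.9 in glucose, a ratio of 0.315. GAL7 averaged 36.7 on ice and 82.8 in glucose (ratio 0.443), GAL3 82.8 and 159 (0.520), and GAL4 95.05 and 155 (0.613). GAL80, GAL1 and GAL10 had ratios of 0.896, 0.982 and 1.03. Between the quartiles, 5541 protein-coding genes with a mean of 10 or more had ratios of 0.791 to 1.1, around a median of 0.95. The levels of GAL2, GAL7, GAL3 and GAL4 were thus below this span, and those of GAL80 and GAL10 within it. By the definition of a quartile, many genes outside the regulon also lay below the span, so this is not particular to the members.

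Other genes of galactose use were described by lists. Genes of the phosphoglucomutases, which carry galactose carbon into glycolysis, were listed together with UGP1. All were higher in U3mut, 3 of 3, where 17.2% of all transcripts were. PGM2, the main phosphoglucomutase, had 1321 estimated counts in U3mut and 144 in U3wt, a log2 fold change of 3.19 (SE 0.39, sleuth q = 1.1e-14). UGP1, which makes UDP-glucose, had 2450 in U3mut and 904 in U3wt, a log2 fold change of 1.44 (SE 0.24, sleuth q = 2.76e-08). PGM1, the minor phosphoglucomutase, had 1153 in U3mut and 729 in U3wt, a log2 fold change of 0.66 (SE 0.18, sleuth q = 0.00177). The list's median log2 fold change was 1.44, beside -0.07 over all transcripts. In snr4Δ cells PGM1 and UGP1 were not called in glucose or on ice, and PGM2 was analysed in the U3 table only.

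Of 4 other genes described as Gal4 targets, 1 was called in U3mut, where 34.7% of all transcripts were, and 2 in snr4Δ cells in glucose, where 18.1% of all genes were. FUR4, the uracil permease gene next to GAL1, was lower, with 171 estimated counts in U3mut and 593 in U3wt (log2 fold change -1.79, sleuth q = 1.61e-16). GCY1, MTH1 and PCL10 did not pass the test there, with log2 fold changes of -0.19, 0.75 and -0.46. In glucose, MTH1, a repressor of hexose transporter genes, was higher, with 5323 normalised counts in snr4Δ cells and 2991 in BY4741 (log2 fold change 0.80, DESeq2 adjusted p = 4.04e-36). GCY1, a glycerol dehydrogenase gene, was lower, with 1363 in snr4Δ cells and 2017 in BY4741 (log2 fold change -0.53, DESeq2 adjusted p = 1.1e-11). Of these 4 genes 0 were called on ice, where 6.48% of all genes were. GCY1, MTH1 and PCL10 held 1 Gal4 motif each in their promoters and FUR4 held none.

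Of 15 genes of glucose repression, 8 were called in U3mut, 8 in snr4Δ cells in glucose and 5 in snr4Δ cells on ice. In U3mut 3 were higher and 5 lower, against 17.2% and 17.5% of all transcripts. The repressor genes MIG1, MIG2 and MIG3 were lower, with log2 fold changes of -0.82, -0.93 and -1.54, as were NRG1 (-1.28), a further repressor, and SIP1 (-0.49), a subunit of the Snf1 kinase. HXK2, the hexokinase that takes part in repression, was higher at 1.41, GLC7, the phosphatase that acts against Snf1, at 1.15, and NRG2, the paralog of NRG1, at 0.65. In snr4Δ cells in glucose 7 of 15 were higher and 1 lower, where 18.1% of genes were called. Here MIG1, MIG2 and MIG3 were higher, with log2 fold changes of 0.56, 0.70 and 0.76, together with the corepressor genes TUP1 (0.38) and CYC8 (0.30), the kinase gene SNF1 (0.30) and HXK2 (0.28), while GLC7 was lower (-0.19). On ice 4 of 15 were higher, MIG1 (0.49), MIG2 (0.68), MIG3 (0.42) and TUP1 (0.25), and SNF4, a subunit of the Snf1 kinase, was lower (-0.23), where 6.48% of all genes were called. MIG1, MIG2 and MIG3 thus had estimates of opposite sign in U3mut and snr4Δ cells. The median over the list was 0.14 in U3mut, 0.16 in snr4Δ cells in glucose and 0.07 on ice. The medians over all genes were -0.07, 0.00 and -0.00, and the median absolute changes 0.67, 0.11 and 0.09.

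Other sugar genes under glucose repression were compared to see whether they moved as GAL genes did. In U3mut 0 of 7 were higher and 2 were lower, near the 34.7% of all transcripts called. These were MAL33 and MAL13, activators of maltose genes, with log2 fold changes of -2.01 and -0.72. SUC2, the invertase gene, had 344 estimated counts in U3mut and 355 in U3wt. In snr4Δ cells in glucose 4 of 5 with an adjusted p were higher, SUC2 (0.59), the maltose permease genes MAL11 (0.35) and MAL31 (0.59), and MAL33 (0.80), with a list median of 0.59, beside 0.00 over all genes, of which 18.1% were called. On ice 0 of 5 were called, where 6.48% of all genes were. The GAL genes shared no call with these genes in snr4Δ cells, where 0 members were called. MAL genes lie in near-identical copies near chromosome ends and their reads can be split among copies.

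Coactivators of Gal4 and genes once given a GAL name were mixed. GAL11, a tail subunit of Mediator through which Gal4 acts, was lower in U3mut (log2 fold change -1.12), as were the SAGA subunit genes SPT20 (-1.09) and SPT3 (-0.73). LAP3, an aminopeptidase gene also called GAL6, was higher (0.78), and 3 of the 7 genes were not called, where 34.7% of all transcripts were called. In snr4Δ cells in glucose GAL11 (0.24), LAP3 (0.16) and SPT8 (0.20) were higher and 0 were lower, where 18.1% of all genes were called. On ice 0 of 7 were called, beside 6.48% of all genes.

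The nearest annotated genes on both sides of each member were examined to see whether the members' changes extended along the chromosome. Of 10 neighbours outside the regulon, 3 were higher in U3mut and 1 lower, a share near the 34.7% of all transcripts called. EMP46, 961 bases from GAL2, was higher, with 891 estimated counts in U3mut and 263 in U3wt (log2 fold change 1.76, SE 0.31), while GAL2 itself was not called. AIM32, 237 bases from GAL80, was higher at 0.58, opposite in sign to GAL80 at -0.75. YPL247C, 268 bases from GAL4, was higher at 1.004, and FUR4, 835 bases from GAL1, was lower. The neighbours of GAL3 and the outer neighbour of GAL7 were not called. Of 9 neighbours with an adjusted p, 0 were called in snr4Δ cells in glucose, where 18.1% of all genes were, and 0 on ice, where 6.48% were.

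**Figure D4:**
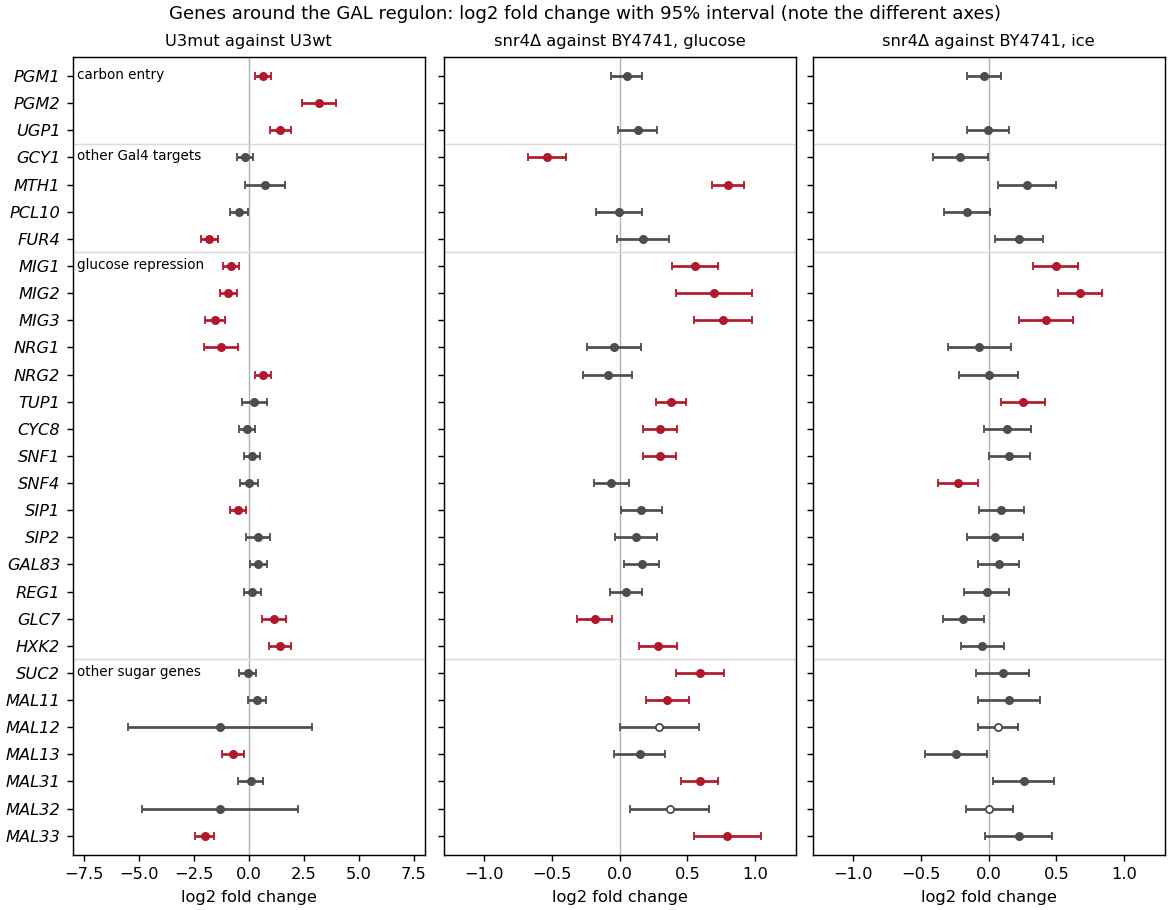
Log2 fold changes with 95% intervals for 4 of the lists, U3mut against U3wt on a wider axis than both snr4Δ panels. Red marks a call, and open circles mark genes without an adjusted p. PGM1, PGM2 and UGP1 are called above 0 in the first panel, where PGM2 alone has no counterpart in the others, while MIG1, MIG2 and MIG3 lie below 0 there and above 0 in the others.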

How the data were processed

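RNA abundance was measured in 18 RNA-seq libraries, grouped by their titles. Per the submitters' processing notes and the study's methods, reads were trimmed (Trimmomatic) and, for U3, quantified with kallisto and tested with sleuth. Reads of the snR4 experiment were aligned to R64 with STAR and counted with HTSeq before the authors' DESeq2 test. Each deposited table holds 1 comparison made by the authors, and these columns were the data used, as no value per library is in them. The U3 coefficient, its error and the mean level were deposited by the authors as natural log values, taken after 0.5 was added to each estimated count, and the variances are deposited as score values. The snR4 tables give log2 fold changes and errors that the authors' software shrank towards 0, the Wald statistic as a score, the mean normalised count, and the authors' p-value and adjusted p. Depth per library is unknown, so no counting interval is given. Columns of per-sample values left unused numbered 0.

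Coefficients were converted to log2. U3 group means and the SD within groups were rebuilt from mean, variance and coefficient. The deposited variances and errors were recovered within 1e-06, and recomputed Benjamini-Hochberg values equalled the deposited q for all 9380 transcripts. Levels per snr4Δ group were back-calculated after undoing the shrinkage and are given only for genes with enough reads. A gene was called when the authors' adjusted p (DESeq2) or q (sleuth) was under 0.05. Entries lacking one were not counted. The snr4Δ effects on ice and in glucose were compared with a z-test, adjusted over 9308 genes.

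The members are given by name. Named besides them were genes called within 6 lists (carbon entry, Gal4 targets, glucose repression, coactivators, other sugar genes, neighbours), the 3 genes most like GAL1 and GAL80 across comparisons, the targeted snoRNA genes and strain markers. The values of GCY1, MTH1, PCL10 and SUC2 in the U3 comparison, where they were not called, were added after they were seen. Members and lists were chosen with earlier results of these data known. Alternatives were adjustment over all genes, a filter on low levels, thresholds of 0.01 and 0.1, a log2 fold change of at least 1, centring on the median, each transcript's own variance and shrinkage undone. Calculations were tested on simulated data. Sequences and coordinates come from RefSeq R64 only. Figures were drawn with matplotlib 3.10.9, and calculations used scipy 1.17.1, pandas 2.3.3 and numpy 2.4.6 in Python 3.11.15.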

Additional observations from a re-analysis of the deposited data

Results flagged for a closer look

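None of the 7 GAL genes responded differently to snr4Δ on ice than in glucose past the threshold, but 1 other Gal4 target and 1 other sugar gene did. MTH1 had a log2 fold change of 0.29 on ice and 0.80 in glucose, a difference of -0.51 (SE 0.13, z-test, adjusted p = 0.0095 over all genes in both DESeq2 tables). SUC2 had a log2 fold change of 0.11 on ice and 0.59 in glucose, a difference of -0.49 (SE 0.13, z-test, adjusted p = 0.0317 over all genes in both DESeq2 tables).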

How the results depend on the processing

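The calls on the members held under most settings. In the U3 comparison 3 members were called, and 1 (GAL80) when only transcripts at or above the median level were kept, because that filter removes GAL10 and GAL3 as low. The 3 calls were the same genes under thresholds of 0.01 and 0.1 and after centring on the median. A log2 fold change of at least 1 kept 2 of them, GAL10 and GAL3. With each transcript's own variance the count was again 3, but GAL1 took the place of GAL3, and 2301 instead of 3253 transcripts were called overall. In both snr4Δ comparisons and in the difference between them 0 members were called under every setting run. None of the 21 estimates changed sign after centring, and none of the 14 snr4Δ estimates did with the shrinkage undone. No paired analysis was possible because the tables hold no value per library, and leaving out each replicate was not run for the same reason. Read numbers were lowest for GAL4, GAL1 and GAL2 in the U3 table and for GAL1 in both snr4Δ tables, and single libraries could not be checked.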

Other observations

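GAL4 stood lower among protein-coding genes in the U3 experiment than in the others. Its mean level was at percentile 0.244 there, at 7.53 on ice and at 8.41 in glucose. In the same order GAL3 was at 6.20, 8.82 and 10.2, GAL80 at 43.3, 54.7 and 55.8, and GAL1 at 1.32, 2.35 and 2.25. The U3 levels come from transcript estimates and the others from gene counts, and the part of this in the ranks was not tested.

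Some genes outside the regulon had nearly the same 3 log2 fold changes as GAL1 or GAL80. The measure was the Euclidean distance over the 3 comparisons, among 4203 genes at or above the median level in each. For GAL80 the nearest were YGL140C (distance 0.029), RPC53 (0.032), a subunit of RNA polymerase III, and RTN1 (0.036), a reticulon of the endoplasmic reticulum. For GAL1 they were HAC1 (0.110), the transcription factor of the unfolded protein response, MRPL20 (0.172), a mitochondrial ribosomal protein, and HSC82 (0.173), an Hsp90 chaperone. These distances are small beside the SE of the U3 log2 fold change, 1.27 for GAL1 and 0.18 for GAL80. The snr4Δ values of GAL1 are also shrunken at few reads. With 3 values per gene, such closeness is a description only.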
